A study of Homo sapiens with 12 samples.

Results

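The BCL2 family was followed through 12 RNA sequencing libraries of human prostate cancer cells as 10 genes chosen by name: BCL2, BCL2L1, MCL1, BAK1, BID, BCL2L11, BMF, BIK, BAD and HRK. They are 10 of 19973 genes in the deposited table, and all 10 were found there and had enough reads to be tested in each comparison. They are survival and death genes of the family outside the classic p53 targets, and other relatives were counted separately. The libraries fell into 4 groups of 3. C4-2 ARv7 cells, a castration-resistant relative of LNCaP, carried a lentivirus for overexpression of ARv7, a splice variant found in prostate cancer, and C4-2 control cells carried a vector control lentivirus. 22Rv-1 shARv7 cells, from a line derived from the CWR22R xenograft, carried a lentiviral short hairpin for ARv7 depletion, and 22Rv-1 shcontrol cells carried a control hairpin lentivirus. All 4 groups were infected with lentivirus and grown in RPMI medium with fetal bovine serum. Puromycin selection is named for the C4-2 ARv7 and 22Rv-1 shARv7 lines. The libraries of a group came from triplicate dishes, and the sources used here do not give how many separately selected lines stand behind each group, so p-values measure only the spread between dishes.

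Proteins of the BCL2 family decide whether the outer membrane of the mitochondrion is opened, the step that releases cytochrome c and starts the caspases. Survival proteins (BCL2, BCL-XL from BCL2L1, and MCL1) hold the pore formers BAK and BAX in check. BH3-only proteins (BID, BIM from BCL2L11, BMF, BIK, BAD and Harakiri from HRK) bind the survival proteins through a short helix and release or activate the pore formers.

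Total counts ran from 12318529 to 14672948 per library. Pairs of replicates differed by more than counting noise, by a chi-square of 2.10 to 4.64 for each degree of freedom except for C4-2 control replicate 3, which stood at 12.3 and 6.85 from the other C4-2 controls. All 8 prostate luminal markers had at least 1 CPM, a read count scaled to library size, in every group. Their summed level was 8351 to 8468 CPM in C4-2 ARv7, 4236 to 4376 in C4-2 control, 3128 to 3192 in 22Rv-1 shARv7 and 3079 to 3094 CPM in 22Rv-1 shcontrol. Of 6 fibroblast and smooth muscle markers 1 to 3 reached 1 CPM in a group. They summed to 15.9 to 18.2 CPM in C4-2 ARv7 and 7.82 to 9.06 in C4-2 control, where DCN and LUM were at 0, and to 24.0 to 28.1 in 22Rv-1 shARv7 and 40.9 to 44.8 CPM in 22Rv-1 shcontrol. The 5 endothelial markers summed to 0.152 to 9.16 CPM over all libraries. The 6 leukocyte markers summed to 0.342 to 1.51 CPM in C4-2 ARv7, 1.73 to 3.82 in C4-2 control and 1.32 to 2.13 in 22Rv-1 shcontrol. In 22Rv-1 shARv7 they summed to 2.88 to 13.8 CPM, and 3 of them averaged at least 1 CPM. The 13.8 CPM was in shARv7 replicate 1, where LYZ alone had 8.70 CPM. Each group had 1 or 2 genes of each list at 0 in all its libraries, but not the same genes in every group. The part of these markers in the results below was not tested. Each measurement is of RNA from a whole dish, so fewer cells with a transcript and less of it per cell cannot be told apart.

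Of the 10 genes, 8 had promoter windows in RefSeq on GRCh38.p14, 15 windows in all, each covering 250 bases before to 50 after a transcription start. Some windows of BID overlap each other, as do the windows of BAD, so the 15 windows are not 15 separate promoters. MCL1 and BIK had none in the table used. The hexamer AGAACA of the steroid hormone response element, read on both strands (TGTTCT), occurred in 0 of the 15 windows and in 14.8% of all 35116 windows. The forkhead core GTAAACA, read on both strands (TGTTTAC), occurred in 1 of the 15 windows and in 3.42% of all windows. The bases before the start are shown for BCL2L11 and HRK, which had the largest falls among the 10 genes in C4-2 ARv7 cells, and for BAK1, which was higher in both comparisons. The BCL2L11 stretch is chr2:111120664-111120913 on the plus strand, and capitals mark the forkhead core, which begins 223 bases before the start.
BCL2L11: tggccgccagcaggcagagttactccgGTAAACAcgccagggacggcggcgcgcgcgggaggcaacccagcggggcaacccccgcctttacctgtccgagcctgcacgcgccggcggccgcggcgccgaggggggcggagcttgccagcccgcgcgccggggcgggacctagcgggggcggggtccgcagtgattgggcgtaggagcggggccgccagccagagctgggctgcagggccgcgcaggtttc
The HRK stretch is chr12:116881442-116881691 on the minus strand and holds neither motif.
HRK: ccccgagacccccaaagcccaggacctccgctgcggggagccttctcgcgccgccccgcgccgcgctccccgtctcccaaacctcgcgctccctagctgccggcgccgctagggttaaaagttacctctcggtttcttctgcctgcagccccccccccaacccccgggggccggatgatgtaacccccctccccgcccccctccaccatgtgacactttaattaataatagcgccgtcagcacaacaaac
The BAK1 stretch is chr6:33580277-33580526 on the minus strand and holds neither motif.
BAK1: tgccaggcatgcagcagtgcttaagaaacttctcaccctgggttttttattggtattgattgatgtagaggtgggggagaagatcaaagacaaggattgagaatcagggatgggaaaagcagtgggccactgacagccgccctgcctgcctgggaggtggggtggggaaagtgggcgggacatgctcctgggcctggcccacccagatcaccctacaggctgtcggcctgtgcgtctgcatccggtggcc
GC content of the full window was 74.7% for BCL2L11, 66.3% for HRK and 58.7% for BAK1, against a median of 58.7% over all windows. A match is a description of these letters and was not tied to binding of a factor.

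Levels between genes were compared as FPKM, read counts scaled to gene length and library size, as the authors deposited them. MCL1 was the most abundant of the 10 in every library. It averaged 46.5 ± 0.62 FPKM in C4-2 ARv7, 39.7 ± 1.1 in C4-2 control, 77.9 ± 2.2 in 22Rv-1 shARv7 and 75.7 ± 1.6 FPKM in 22Rv-1 shcontrol (SD, n = 3 each). MCL1 made up 47.8%, 41.8%, 53.1% and 55.4% of the summed FPKM of the 10 genes in those groups. The gene in second place depended on the line. In C4-2 it was BCL2L1, at 14.1 ± 1.0 FPKM in ARv7 cells and 18.1 ± 1.4 FPKM in control cells. In 22Rv-1 it was BMF, whose product binds survival proteins when it is freed from the cytoskeleton, at 32.3 ± 1.2 FPKM in shARv7 cells and 31.3 ± 1.0 FPKM in shcontrol cells.

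**Figure D1:**
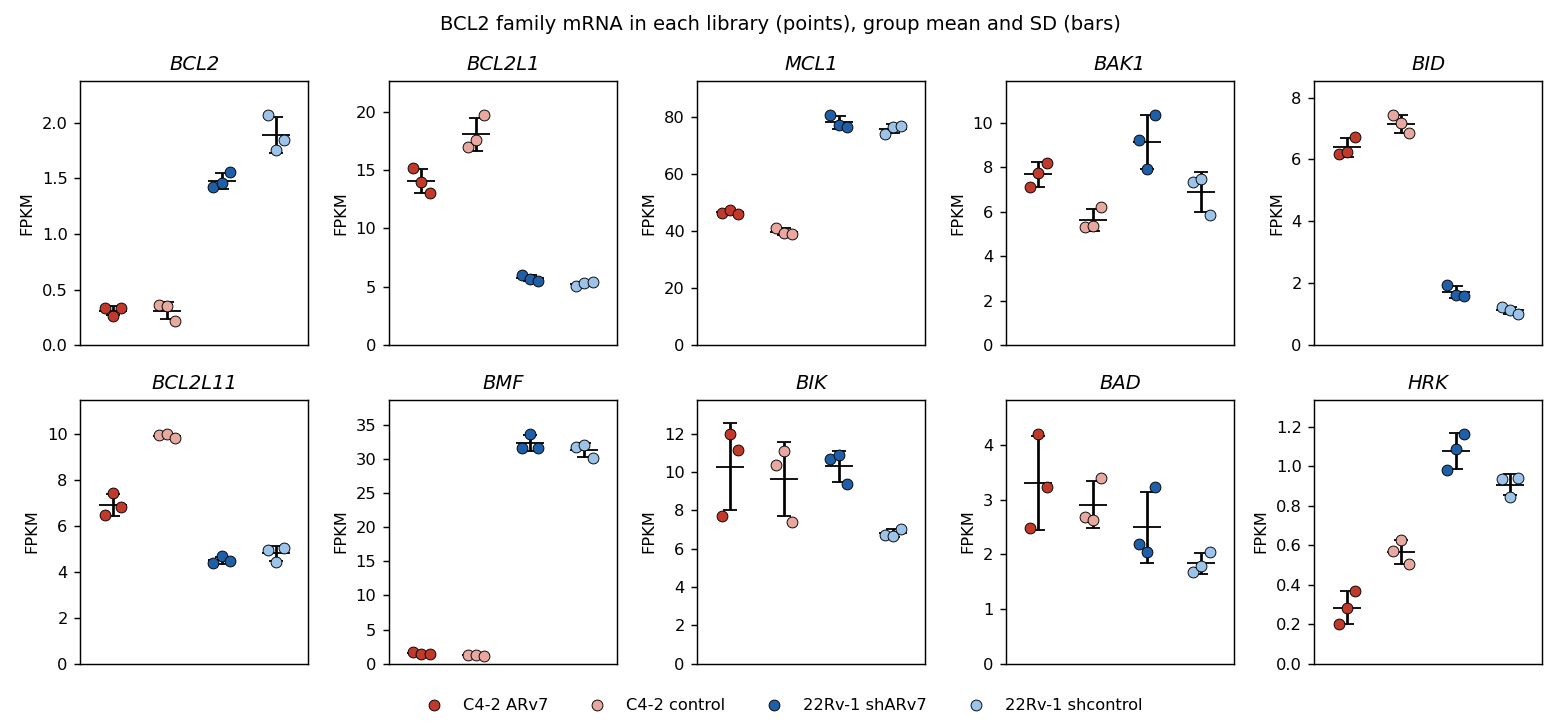
FPKM of each of the 10 genes in every library (points), with the group mean and SD (bars, n = 3), in C4-2 ARv7, C4-2 control, 22Rv-1 shARv7 and 22Rv-1 shcontrol cells, on a separate linear axis for each gene. BMF sits between 30.1 and 33.7 FPKM in 22Rv-1 and between 1.18 and 1.74 FPKM in C4-2.

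The middle of the order was close. In C4-2 ARv7 cells BIK (10.3 ± 2.3 FPKM), BAK1 (7.67 ± 0.54), BCL2L11 (6.89 ± 0.47) and BID (6.39 ± 0.30) followed BCL2L1, and each overlapped the next of these. In C4-2 control cells the order was BCL2L11 (9.91 ± 0.097 FPKM), BIK (9.64 ± 2.0), BID (7.15 ± 0.29) and BAK1 (5.62 ± 0.50), and of these neighbours the pair BCL2L11 and BIK overlapped. In both C4-2 groups BAD, at 3.30 ± 0.86 FPKM in ARv7 and 2.91 ± 0.43 in control cells, and then BMF, at 1.53 ± 0.19 FPKM in ARv7 and 1.26 ± 0.072 in control cells, came next without overlap. BCL2 and HRK were the lowest 2 genes in C4-2. BCL2 stood at 0.309 ± 0.041 FPKM in ARv7 cells and 0.310 ± 0.078 in control cells. HRK stood at 0.283 ± 0.084 FPKM in ARv7 cells, where it overlapped BCL2, and at 0.567 ± 0.061 in control cells, where it did not.

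In 22Rv-1 shARv7 cells BIK (10.3 ± 0.82 FPKM) and BAK1 (9.15 ± 1.2) came next and overlapped. In shcontrol cells BAK1 (6.88 ± 0.91 FPKM) and BIK (6.81 ± 0.21) overlapped in the reverse order. BCL2L1 and then BCL2L11 followed in both groups, at 5.74 ± 0.28 and 4.50 ± 0.16 FPKM in shARv7 cells and at 5.27 ± 0.16 and 4.79 ± 0.32 FPKM in shcontrol cells. BAD, BID and BCL2 were close to each other. BAD stood at 2.49 ± 0.65 FPKM in shARv7 and 1.83 ± 0.19 in shcontrol cells. BID stood at 1.72 ± 0.19 FPKM in shARv7 and 1.12 ± 0.10 in shcontrol cells. BCL2 stood at 1.48 ± 0.072 FPKM in shARv7 and 1.89 ± 0.16 in shcontrol cells. In shcontrol cells BCL2 overlapped BAD and stood above it, whereas in shARv7 cells BCL2 was below BID. HRK was last in both 22Rv-1 groups, at 1.08 ± 0.092 FPKM in shARv7 and 0.906 ± 0.053 FPKM in shcontrol cells.

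**Figure D2:**
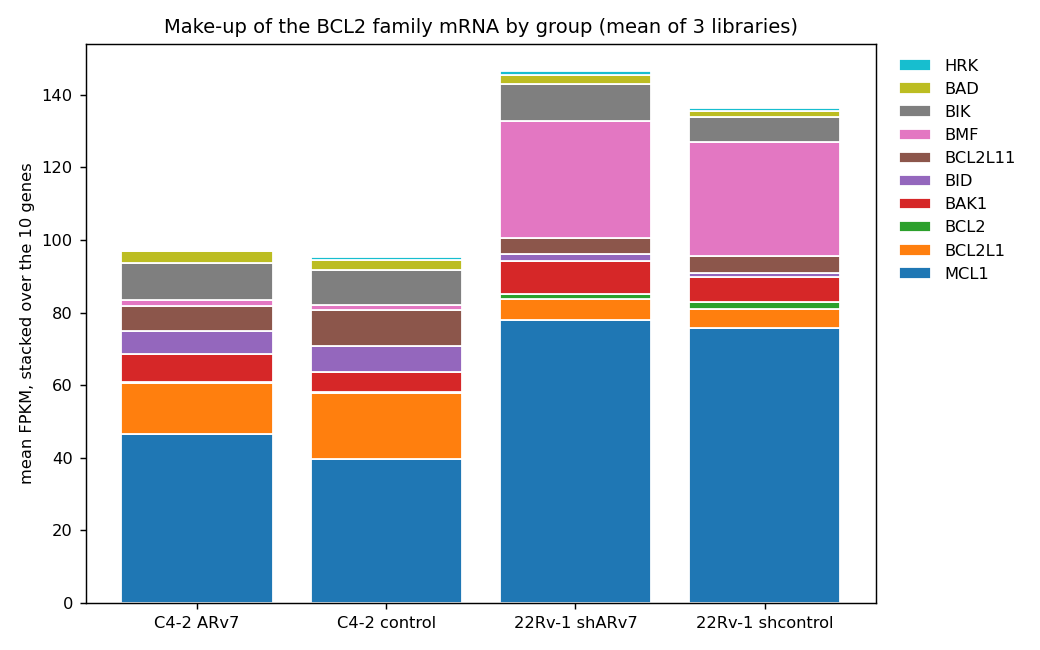
Mean FPKM of the 10 genes stacked by group (n = 3 libraries each), from MCL1 at the bottom to HRK at the top. MCL1 is the largest block in every bar, and the BMF block is 22.0% and 22.9% of the 22Rv-1 shARv7 and shcontrol bars against 1.58% and 1.33% of the C4-2 ARv7 and control bars.

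The first comparison asked how the family differed in C4-2 cells that gained ARv7. The BH3-only genes BCL2L11, BID and HRK and the survival gene BCL2L1 fell, and the pore-former gene BAK1 rose. Of the 10 genes 1 was higher, 4 were lower and 5 did not pass the test, which was edgeR's quasi-likelihood test with a Benjamini-Hochberg adjusted p under 0.05 over all 12783 genes tested. Across all genes 59.1% were called, 29.6% higher and 29.5% lower, so the 5 of 10 genes called here are near that background. Without C4-2 control replicate 3 the same 5 genes passed. The median log2 fold change was -0.10 over the 10 genes and 0.005 over all genes tested. Levels below are CPM normalised by TMM (trimmed mean of M-values) within the line, and they are not per length.

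**Figure D3:**
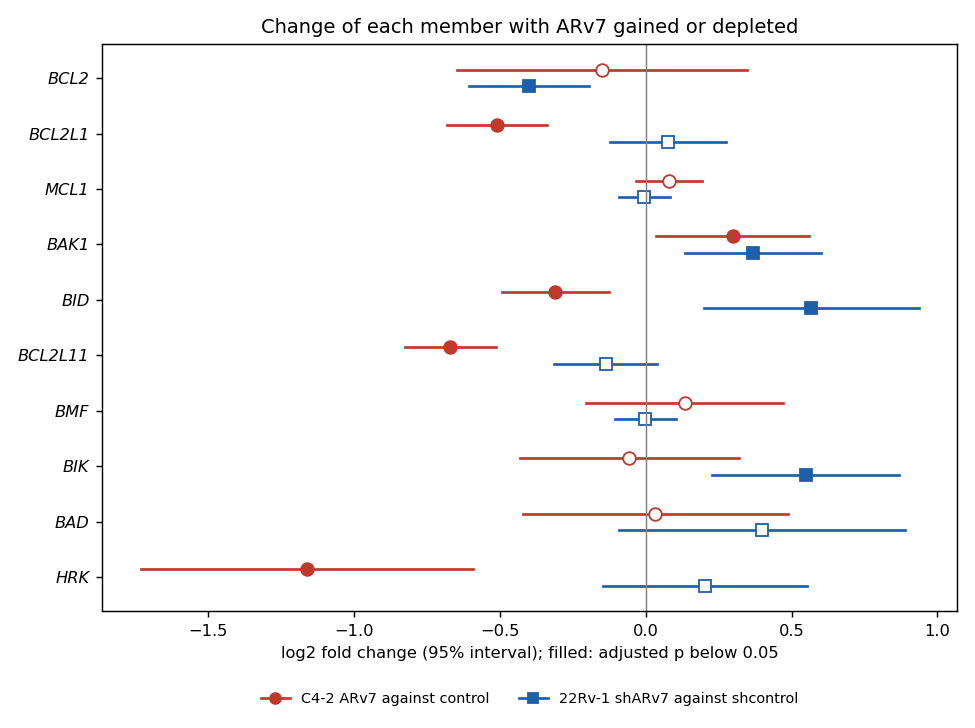
Log2 fold change of each gene with its 95% interval, for C4-2 ARv7 against control (circles, upper of each pair) and 22Rv-1 shARv7 against shcontrol (squares, lower). Filled symbols have an adjusted p below 0.05. BCL2L11, BCL2L1, BID and HRK lie left of 0 in C4-2, BID lies right of 0 in 22Rv-1, and BAK1 lies right of 0 in both.

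BCL2L1, which encodes BCL-XL, lies at chr20:31664452-31723989 on the minus strand. It had 60.4, 55.8 and 52.1 CPM in C4-2 ARv7 cells, against 73.5, 77.0 and 89.4 CPM in C4-2 control cells. All ARv7 libraries were below all control libraries. The log2 fold change was -0.51 (SE 0.082, edgeR adjusted p = 2.6e-05).

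MCL1, which encodes a short-lived survival protein, lies at chr1:150560895-150579738 on the minus strand. It had 274, 279 and 272 CPM in ARv7 cells, against 263, 255 and 263 CPM in control cells. The groups did not overlap, yet the difference of 0.08 on the log2 scale did not pass the test (95% interval -0.03 to 0.19, edgeR adjusted p = 0.223). With total counts and no scaling factor it was 0.23 and passed (edgeR adjusted p = 0.00133), a setting in which the median of all genes moved to 0.15 (log2). BCL2, the founding survival gene of the family, lies at chr18:63123346-63320128 on the minus strand. It had 3.96, 3.14 and 4.01 CPM in ARv7 cells, against 4.67, 4.63 and 3.00 CPM in control cells. These groups overlapped, and the interval of the difference was wide, -0.65 to 0.35 on the log2 scale (edgeR adjusted p = 0.61).

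BAK1, which encodes the pore former BAK, lies at chr6:33572547-33580293 on the minus strand. It had 14.9, 16.3 and 17.2 CPM in ARv7 cells, against 12.1, 12.4 and 14.8 CPM in control cells. The groups were just separate, and the log2 fold change was 0.30 (SE 0.13, edgeR adjusted p = 0.0479). The call held in 7 of 15 alternative settings. Among others it was lost with DESeq2 (adjusted p = 0.116) and when ARv7 replicate 2 or 3 or control replicate 1 or 2 was left out (edgeR adjusted p = 0.106 to 0.157). Without control replicate 3, the library that stands apart, the log2 fold change of BAK1 was 0.39 (edgeR adjusted p = 0.0103). BAK1 has pseudogenes, BAK1P1 and BAK1P2, with which it may share reads.

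BCL2L11, which encodes BIM, lies at chr2:111119378-111168445 on the plus strand. It had 41.0, 46.9 and 43.0 CPM in ARv7 cells, against 68.3, 69.4 and 70.6 CPM in control cells. The groups stood well apart, with a log2 fold change of -0.67 (SE 0.075, edgeR adjusted p = 2.53e-07) that corresponds to a level 1.59-fold lower. This was the smallest adjusted p of the 10 genes. A change at least this large, in either direction, was seen in 23.5% of all genes tested.

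HRK, a BH3-only gene described mainly in neurons, lies at chr12:116856144-116881441 on the minus strand. It had 1.30, 1.84 and 2.39 CPM in ARv7 cells, against 4.04, 4.48 and 3.75 CPM in control cells, which rests on 20, 27 and 31 reads against 57, 63 and 50 reads. All ARv7 libraries were below all control libraries. The log2 fold change was -1.16 (SE 0.27, edgeR adjusted p = 0.00113), the largest of the 10 genes and 2.24-fold lower. A change at least this large was seen in 10.7% of all genes tested.

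BID, whose product links death receptors to mitochondria once caspase-8 has cut it, lies at chr22:17734138-17774770 on the minus strand. It had 26.0, 26.3 and 28.3 CPM in ARv7 cells, against 33.9, 33.2 and 32.8 CPM in control cells. The groups did not overlap, and the log2 fold change was -0.31 (SE 0.087, edgeR adjusted p = 0.00489). With total counts it was -0.16 and the call was lost (edgeR adjusted p = 0.122), as it was with limma on log2(FPKM + 1) (adjusted p = 0.0885).

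The other BH3-only genes did not pass the test in C4-2, and their groups overlapped. BMF, at chr15:40087890-40108892 on the minus strand, had 9.03, 7.51 and 7.25 CPM in ARv7 cells, against 7.29, 7.47 and 6.97 CPM in control cells (log2 fold change 0.13, 95% interval -0.20 to 0.47). BIK, at chr22:43110750-43129712 on the plus strand, encodes a protein of the endoplasmic reticulum and had 6.95, 10.9 and 10.1 CPM in ARv7 cells, against 10.2, 11.0 and 7.65 CPM in control cells. BAD, at chr11:64269830-64284704 on the minus strand, encodes a protein kept inactive by phosphorylation and had 4.03, 6.83 and 5.24 CPM in ARv7 cells, against 4.74, 4.70 and 6.30 CPM in control cells. The intervals of BIK (-0.43 to 0.32) and BAD (-0.42 to 0.49) leave room for moderate changes in either direction.

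The second comparison asked how the family differed in 22Rv-1 cells depleted of ARv7. The pore-former gene BAK1 and the BH3-only genes BID and BIK rose, and the survival gene BCL2 fell. Of the 10 genes 3 were higher, 1 was lower and 6 did not pass the test, with 48% of all 13459 genes tested called by edgeR, 23.9% higher and 24.1% lower, so the 4 of 10 genes called are again near the background. The median log2 fold change was 0.14 over the 10 genes and 0.009 over all genes tested. The groups did not overlap for 5 of the 10 genes, against 53.7% of all genes, and in C4-2 for 6 of the 10 genes, against 63.3% of all genes.

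BCL2 had 17.7, 18.0 and 19.3 CPM in 22Rv-1 shARv7 cells, against 26.5, 22.5 and 23.7 CPM in 22Rv-1 shcontrol cells. All shARv7 libraries were below all shcontrol libraries, with a log2 fold change of -0.40 (SE 0.10, edgeR adjusted p = 0.000834). The other survival genes differed little. BCL2L1 had 25.1, 23.2 and 22.8 CPM in shARv7 cells, against 21.7, 22.9 and 22.9 CPM in shcontrol cells (log2 fold change 0.08, 95% interval -0.12 to 0.27). MCL1 had 494, 472 and 466 CPM in shARv7 cells, against 468, 484 and 484 CPM in shcontrol cells, and the interval of its difference was -0.09 to 0.08 on the log2 scale. Both overlapped between groups, and the narrow interval of MCL1 leaves room for only small changes.

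BAK1 had 20.1, 17.2 and 22.4 CPM in shARv7 cells, against 16.5, 16.8 and 13.1 CPM in shcontrol cells. The groups were just separate, and the log2 fold change was 0.37 (SE 0.12, edgeR adjusted p = 0.0063). Leaving out shARv7 replicate 3 or shcontrol replicate 3 ended this call (edgeR adjusted p = 0.097 and 0.078).

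BID had 8.44, 7.11 and 6.91 CPM in shARv7 cells, against 5.53, 5.04 and 4.58 CPM in shcontrol cells. The groups did not overlap, and the log2 fold change of 0.57 (SE 0.18, edgeR adjusted p = 0.00811) was the largest of the 10 genes in 22Rv-1. Without shARv7 replicate 1 it was 0.47 and no longer passed (edgeR adjusted p = 0.0618). BIK had 10.0, 10.2 and 8.74 CPM in shARv7 cells, against 6.53, 6.43 and 6.80 CPM in shcontrol cells. Its groups stood clearly apart, with a log2 fold change of 0.55 (SE 0.16, edgeR adjusted p = 0.00337).

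BCL2L11 had 28.7, 30.6 and 29.2 CPM in shARv7 cells, against 33.4, 30.0 and 33.8 CPM in shcontrol cells. The groups overlapped, and the difference did not pass (log2 fold change -0.14, 95% interval -0.32 to 0.04, edgeR adjusted p = 0.203). HRK had 6.63, 7.34 and 7.83 CPM in shARv7 cells, against 6.53, 5.89 and 6.52 CPM in shcontrol cells. The groups were just separate, but the difference did not pass (log2 fold change 0.20, 95% interval -0.15 to 0.55, edgeR adjusted p = 0.355).

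BMF had 170, 180 and 169 CPM in shARv7 cells, against 176, 178 and 167 CPM in shcontrol cells. Its interval was -0.11 to 0.10 on the log2 scale, which leaves room for only small changes. BAD had 3.69, 3.44 and 5.43 CPM in shARv7 cells, against 2.91, 3.10 and 3.54 CPM in shcontrol cells. The highest shcontrol library lay among the shARv7 libraries, and the difference did not pass (log2 fold change 0.40, 95% interval -0.09 to 0.89, edgeR adjusted p = 0.178).

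The sources used here do not give the strand of the libraries, and several of the 10 genes share exon bases with a gene on the opposite strand in GENCODE 29. These partners are ABALON for BCL2L1 (943 bp in the longest shared stretch), MIR4435-2HG for BCL2L11 (727 bp), BMF-AS1 for BMF (284 bp), GPR137 for BAD (276 bp) and GGNBP1 for BAK1 (91 bp). Reads of a gene and its partner could not be told apart. MCL1 shares 2 bp with ADAMTSL4-AS1 on its own strand, and BCL2, BID, BIK and HRK share none. The ends of MCL1, BIK and BCL2L11 in the deposited table differ from those in GENCODE 29. Their overlaps may therefore differ for the gene models that were counted.

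Because ARv7 was added in C4-2 and removed in 22Rv-1, the lines were compared by setting high against low ARv7 in each: C4-2 ARv7 minus C4-2 control, less 22Rv-1 shcontrol minus 22Rv-1 shARv7. A value of 0 means mirror-image responses. BAK1 was above 0, since it was higher with ARv7 gained and also higher with ARv7 depleted, and BCL2, BCL2L1, BCL2L11 and HRK were below 0. In this fit of all 12 libraries 1 of the 10 genes was higher, 4 were lower and 5 did not pass, with 50.7% of 14235 genes called by edgeR, 27.4% higher and 23.3% lower. The share of the 10 genes is again near this background. Vector and line change together here and cannot be told apart.

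**Figure D4:**
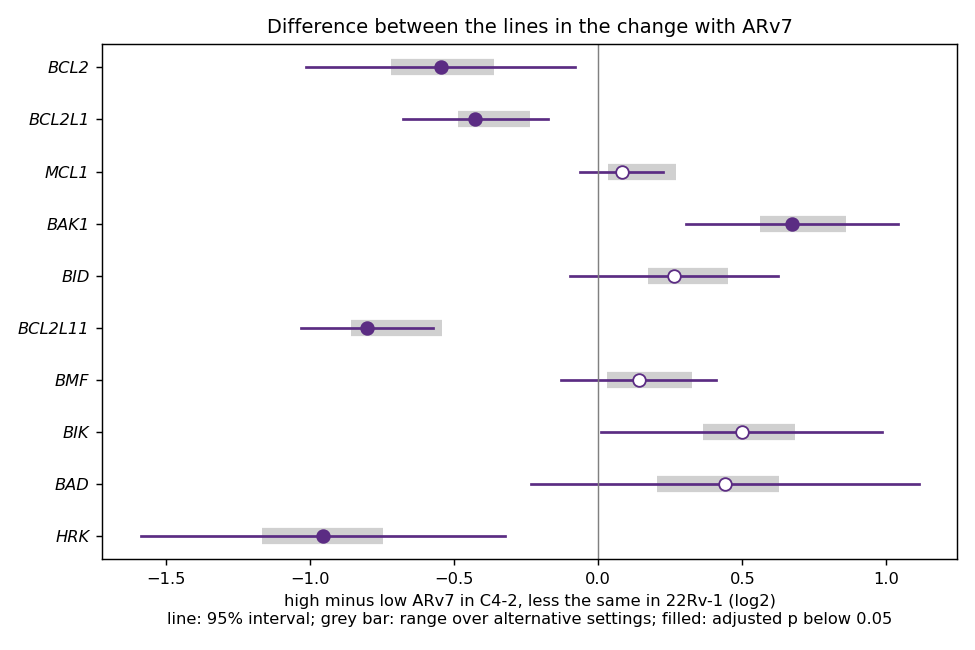
Difference between the lines in the change with ARv7 for each gene: high minus low ARv7 in C4-2, less the same in 22Rv-1 (log2), with the 95% interval (line) and the range over the alternative settings (grey bar). Filled points have an adjusted p below 0.05, and BCL2L11 has the interval farthest from 0.

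BCL2L11 differed by -0.80 (SE 0.11, edgeR adjusted p = 2.39e-07) and passed in all 20 alternative settings, with values between -0.86 and -0.54. BAK1 differed by 0.67 (SE 0.18, edgeR adjusted p = 0.0021) and passed in all 20 settings, between 0.56 and 0.86. The log2 difference of HRK was -0.95 (SE 0.31, edgeR adjusted p = 0.0103), and without C4-2 ARv7 replicate 1 it was -0.75 and missed the threshold (edgeR adjusted p = 0.0536). For BCL2L1 the value was -0.43 (SE 0.12, edgeR adjusted p = 0.00424), and with total counts it was -0.24 and missed it (edgeR adjusted p = 0.0973). BCL2, at -0.55 (SE 0.23, edgeR adjusted p = 0.0456), kept the call in 8 of 18 alternative settings. With total counts it was -0.36 (edgeR adjusted p = 0.197). It was also lost without C4-2 ARv7 replicate 2, C4-2 control replicate 1 or 2, 22Rv-1 shARv7 replicate 1 or 2, or 22Rv-1 shcontrol replicate 1 or 3, with edgeR adjusted p between 0.0527 and 0.14.

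BID fell with ARv7 gained and rose with ARv7 depleted, the same direction with respect to ARv7, and its 2 responses were not shown to differ (0.26, 95% interval -0.10 to 0.63, edgeR adjusted p = 0.223). The remaining genes did not pass either. BIK was at 0.50 (95% interval 0.01 to 0.99, edgeR adjusted p = 0.0824), BAD at 0.44 (-0.23 to 1.11), BMF at 0.14 (-0.13 to 0.41) and MCL1 at 0.08 (-0.06 to 0.22). With total counts MCL1, BID, BMF and BIK passed instead, at 0.27, 0.45, 0.33 and 0.68, in a setting that moved the median of all genes to 0.25 against 0.06. This was not the only setting in which they passed. BIK stayed short of the threshold in 15 of 20 alternative settings, MCL1 in 17, and BID and BMF in 18 each.

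The control cells of the lines differed in most of the family, as they did in most genes tested. In 22Rv-1 shcontrol against C4-2 control cells 4 of the 10 genes were higher, 5 were lower and 1 did not pass, with 83.4% of 14235 genes called by edgeR, 42.5% higher and 40.9% lower. The share of the 10 genes is near this background as well. This comparison shares its libraries with those above, and line and vector again cannot be told apart. BMF was higher by 4.48 on the log2 scale (SE 0.085, edgeR adjusted p = 1.41e-33), which is 22.3-fold, the largest difference among the 10 genes. Only 9.72% of all genes tested differed by more. BCL2 was higher by 2.46 on the log2 scale (SE 0.15, edgeR adjusted p = 2.3e-17), MCL1 was 1.72-fold higher (log2 0.78) and HRK was 1.44-fold higher (log2 0.53, edgeR adjusted p = 0.0179).

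BID was 7.05-fold lower in 22Rv-1 shcontrol cells (log2 -2.82, SE 0.12, edgeR adjusted p = 5.9e-22), and BCL2L1 was 3.81-fold lower (log2 -1.93, SE 0.087, edgeR adjusted p = 1.29e-21). BCL2L11 was 2.29-fold, BAD 1.76-fold and BIK 1.57-fold lower. BAK1 did not pass (log2 0.14, 95% interval -0.13 to 0.41, edgeR adjusted p = 0.319), and with total counts it passed at 0.29 (edgeR adjusted p = 0.0389). The survival genes therefore did not move together between the lines: BCL2 and MCL1 were higher in 22Rv-1 shcontrol cells and BCL2L1 was lower.

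Ratios within a library need no scaling factor. MCL1 over BCL2L1 in FPKM was 3.32 ± 0.24 in C4-2 ARv7, 2.21 ± 0.22 in C4-2 control, 13.6 ± 0.27 in 22Rv-1 shARv7 and 14.4 ± 0.15 in 22Rv-1 shcontrol cells (SD, n = 3 each). The summed FPKM of the 3 survival genes over that of the 7 death genes was 1.69 ± 0.21 in C4-2 ARv7 and 1.57 ± 0.087 in C4-2 control cells. In 22Rv-1 it was 1.44, 1.36 and 1.35 in shARv7 libraries, against 1.48, 1.54 and 1.61 in shcontrol libraries, and these groups did not overlap. The ratios are a description of messenger RNA and were not tested.

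Likeness of pattern was measured for the gene with the largest change in each line, as Pearson correlation of TMM log2 CPM over all 12 libraries with genes of at least 5 CPM. The 12 points share 4 groups in 2 lines and no p is given. For HRK the 3 most alike of 11159 genes were C15orf40 (r = 0.986), TERF2IP (0.985) and AMY2B (0.982). For BID the 3 most alike of 11158 genes were MPV17L, JAG2 and SELENOF, each at an r of 0.996 to 0.997.

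In C4-2 ARv7 cells 4 of 4 further pore-former and BH3-only genes were lower, beside 29.5% of all genes called lower, with a median log2 fold change of -0.81 against 0.005 over all genes. They include the classic p53 targets, which the rule for the 10 genes left out. BBC3, which encodes the BH3-only protein PUMA, had 6.11, 2.32 and 5.47 CPM in C4-2 ARv7 cells, against 15.2, 16.3 and 15.2 CPM in C4-2 control cells (log2 fold change -1.75, edgeR adjusted p = 8.2e-07). PMAIP1, which encodes the BH3-only protein NOXA, had 27.7, 30.4 and 27.1 CPM in ARv7 cells, against 56.1, 49.5 and 50.8 CPM in control cells (log2 fold change -0.87, edgeR adjusted p = 3.78e-08). The pore-former genes BAX (-0.67) and BOK (-0.74) were lower as well, whereas BAK1 was higher. The further survival genes BCL2L2 (-0.61) and BCL2L10 (-1.71) were lower in C4-2 ARv7 cells, and BCL2A1 had too few reads to be tested. BCL2L10 was near the floor, at 0.520, 0.0683 and 0.771 CPM in ARv7 cells, against 1.42, 1.42 and 1.57 CPM in control cells. ARv7 replicate 2 lay below the 0.215 CPM that 3 counts make in that library, so the size of this fall is uncertain.

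In 22Rv-1 shARv7 cells the same 4 pore-former and BH3-only genes split, beside 48% of all genes called. BOK was higher at 0.44 (edgeR adjusted p = 7.38e-05), PMAIP1 was lower at -0.64 (edgeR adjusted p = 3.29e-08), BAX was lower at -0.20 (edgeR adjusted p = 0.0331) and BBC3 did not pass (0.16, edgeR adjusted p = 0.0645). BAX was near the threshold and passed in 6 of 15 alternative settings. Of these 4 genes, 2 were called higher and 1 lower with total counts and with limma on log2(FPKM + 1). With DESeq2 1 was higher and 1 lower. PMAIP1 thus fell in both comparisons, with ARv7 gained and with ARv7 depleted. BCL2L2, the further survival gene that could be tested, did not pass in 22Rv-1 (0.09, edgeR adjusted p = 0.258).

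Downstream of the pore, 4 of 11 apoptosome and caspase genes were higher and 2 were lower in C4-2 ARv7 cells (5 and 1 with total counts), with a median of 0.26 against 0.005 over all genes. That share of genes called is near the 59.1% of all genes called. CASP8, the initiator caspase that cuts BID, had 17.5, 14.9 and 15.6 CPM in ARv7 cells, against 6.87, 8.61 and 7.35 CPM in control cells (log2 fold change 1.07, edgeR adjusted p = 2e-06). CYCS, which encodes cytochrome c, was lower at -0.63 (edgeR adjusted p = 3.93e-08), and CASP6 was lower at -0.36 (edgeR adjusted p = 0.035) but passed in 6 of 15 alternative settings. In 22Rv-1 shARv7 cells 3 of 10 tested genes of that list were higher and 3 were lower, beside 48% of all genes called in either direction. CYCS was lower there too, at -0.29 (edgeR adjusted p = 1.04e-07), CASP2 was lower at -0.35, and DFFA, the inhibitor of the caspase-activated nuclease, was higher at 0.37.

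Inhibitors of apoptosis bind caspases or their regulators, and in C4-2 ARv7 cells 2 of 6 tested were higher and 4 were lower (2 and 2 with total counts). Across all genes 59.1% were called in C4-2 with TMM, 29.6% higher and 29.5% lower. BIRC5, which encodes survivin and serves in cell division as well, had 28.9, 27.8 and 28.8 CPM in ARv7 cells, against 1.70, 0.854 and 1.87 CPM in control cells. Its log2 fold change of 4.27 (SE 0.18, edgeR adjusted p = 1.09e-13) was the largest among the tested genes of the pathway lists in C4-2. BIRC3 was higher at 1.32 (edgeR adjusted p = 6.75e-05), and BIRC2 was lower at -0.92 (edgeR adjusted p = 1.3e-09). In 22Rv-1 shARv7 cells 0 of 4 tested inhibitors passed with edgeR and TMM scaling, beside 48% of all genes called. Of the 4, 0 had an unadjusted p under 0.05. With total counts edgeR called 1 of the 4 higher, and DESeq2 called 1 higher among the genes it kept. BIRC5 had 59.7, 54.1 and 59.3 CPM there, against 61.4, 63.1 and 65.5 CPM in shcontrol cells.

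**Figure D5:**
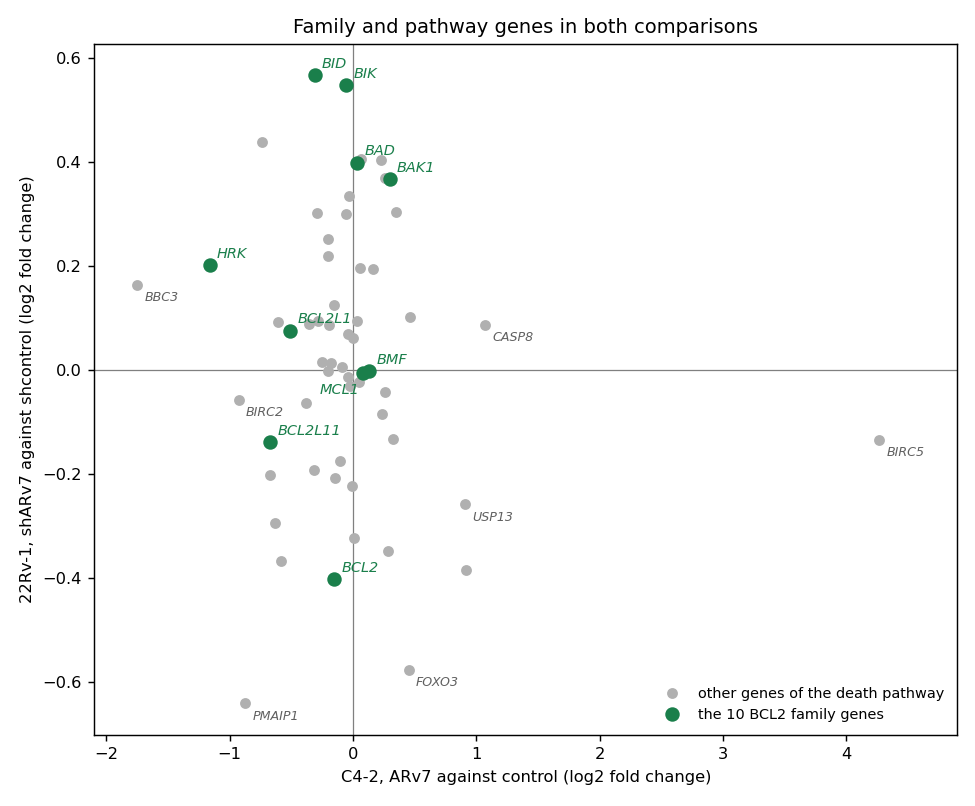
Log2 fold change in C4-2 ARv7 against control cells (x axis) and in 22Rv-1 shARv7 against shcontrol cells (y axis) for the 10 family genes (green) and the other genes of the death pathway lists tested in both comparisons (grey). The axes differ in scale: BIRC5 lies at 4.27 on the x axis, and BAK1 is right of and above 0.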

How the data were processed

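The 10 genes and the gene lists were chosen with earlier results of these data known. Per the labels, cells in triplicate dishes were lysed in TRIzol, sequencing was on an Illumina NovaSeq, and Cutadapt 2.7 removed poly(A) and poor reads. The sources used here do not give the aligner, counter or strand. Per the file headers, the deposited table holds read counts per gene with no normalization, and FPKM, which the authors scaled by gene length and sequencing depth. The submitters' processing notes name the build hg18, but of 19876 gene identifiers found in GENCODE 29 on GRCh38, 19865 began or ended within 10000 bp of the place given there, so coordinates are given as GRCh38. Of 19974 lines 1 had no gene identifier and was dropped.

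Counts were tested with edgeR 4.0.16 in R 4.3.3 (filterByExpr, TMM, quasi-likelihood F-test), each line alone for the ARv7 comparisons and all 12 libraries for the difference between lines and for the control cells. Benjamini-Hochberg adjusted p under 0.05 over all genes tested was a call. edgeR's common biological coefficient of variation came to 0.065 for C4-2 and 0.052 for 22Rv-1. Intervals are at 95%, and a level of 3 counts in a library is 0.204 to 0.244 CPM, which covers counting error only. The pipeline was tested on simulated data. All 10 genes are named, and from each other list up to 3 genes with the smallest adjusted p per comparison and any called against the direction of the rest. Likeness used log2 CPM with a prior count of 2. Alternatives were DESeq2 1.42.0 and its size factors, total counts, other filters on low counts, limma 3.58.1 on log2(FPKM + 1) and log2(FPKM + 0.1), a replicate block, 1 fit for all and leaving out each library. Protein sequences were not used here, and the gene that encodes ARv7 and 1 gene that the naming rule took are not reported here.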

Additional observations from a re-analysis of the deposited data

Results flagged for a closer look

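For 5 genes of the family the change with high against low ARv7 differed between C4-2 and 22Rv-1 in the test of the difference itself. BCL2L11 differed by -0.80 on the log2 scale (edgeR adjusted p = 2.39e-07), with changes of -0.67 in C4-2 ARv7 against control cells and -0.14 in 22Rv-1 shARv7 against shcontrol cells. BAK1 differed by 0.67 (edgeR adjusted p = 0.0021), with changes of 0.30 and 0.37 in those comparisons, both upward. The call of BAK1 within the line held in 7 of 15 alternative settings in C4-2 and in 13 of 15 in 22Rv-1. HRK differed by -0.95 (edgeR adjusted p = 0.0103), with changes of -1.16 and 0.20, and kept this call in 16 of 17 alternative settings. BCL2L1 differed by -0.43 (edgeR adjusted p = 0.00424), with changes of -0.51 and 0.08. BCL2 differed by -0.55 (edgeR adjusted p = 0.0456), with changes of -0.15 and -0.40, but kept this call in only 8 of 18 alternative settings.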

How the results depend on the processing

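Counts of calls over all genes stayed within 1.5 times of those reported under every alternative run. Of the 10 genes, the number called for the difference between lines was 3 with a mean of at least 5 CPM, where HRK was not tested and BCL2 missed the threshold (edgeR adjusted p = 0.0567); it was 7 with total counts. With total counts 67.2% of calls in C4-2 were higher, against 50% with TMM, and 72% against 54% for the difference between lines (68.3% and 69.9% with limma at the larger and smaller pseudocount). Genes that changed sign passed in no setting. In C4-2, BIK was 0.089 with total counts and 0.081 and 0.088 with limma, and -0.20 to 0.12 without 1 library, and BAD was -0.18 to 0.21 without 1 library. In 22Rv-1, MCL1 was 0.043 with total counts, 0.016 with a mean of at least 5 CPM and 0.041 and 0.042 with limma, and -0.031 to 0.0093 without 1 library. BMF there was 0.045, 0.018, 0.043 and 0.045 in those settings, and -0.035 to 0.012 without 1 library. Leaving out 1 library gave 6673 to 7870 calls and 4 to 5 of the 10 genes in C4-2, 5793 to 6532 and 3 to 4 in 22Rv-1, 6752 to 7308 and 4 to 5 for the difference, and 11640 to 11842 and 9 between control cells. Same-numbered libraries did not deviate together (r = -0.17 to 0.02), so the numbers were not taken as pairs. The replicate block gave 7310, 6203, 6863 and 11777 calls in those comparisons and 4, 4, 4 and 9 of the 10 genes, with BAK1 in C4-2 at an adjusted p of 0.0514 and BCL2 for the difference at 0.059. Low counts limit HRK, BCL2 and BAD in C4-2, BAD, BID and HRK in 22Rv-1, and BCL2L10 among the other genes named. In 22Rv-1 BAD had 49, 45 and 77 reads in shARv7 libraries, against 41, 40 and 51 in shcontrol libraries. BID had 112, 93 and 98 reads there, against 78, 65 and 66. The causes of these shifts were not tested.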

Other observations

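Of 13 kinases, scaffolds and transcription factors acting on BH3-only proteins, 3 were higher and 4 lower in C4-2 ARv7 cells with TMM scaling, and 7 were higher and 1 lower with total counts. The share called is near the 59.1% of all genes called in C4-2. FOXO3, a forkhead factor known to drive BCL2L11 in several cell types, was higher in C4-2 ARv7 cells at 0.45 (edgeR adjusted p = 1.93e-06) and lower in 22Rv-1 shARv7 cells at -0.58 (edgeR adjusted p = 1.16e-13). BCL2L11 was lower in C4-2 ARv7 cells and did not pass in 22Rv-1. YWHAZ, a 14-3-3 scaffold that holds phosphorylated BAD, was higher in both comparisons, at 0.35 in C4-2 ARv7 cells (edgeR adjusted p = 1.52e-05) and 0.30 in 22Rv-1 shARv7 cells (edgeR adjusted p = 2.7e-10). In 22Rv-1 shARv7 cells 3 of the 13 were higher and 5 lower (5 and 3 with total counts), beside 48% of all genes called, among them AKT2 at -0.22, DYNLL1 at 0.19 and FOXO1 at 0.30.

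Of 4 enzymes that add or remove ubiquitin on MCL1, 1 was higher and 0 lower in C4-2 ARv7 cells (3 higher with total counts), and 2 were lower in 22Rv-1 shARv7 cells. With TMM 59.1% of all genes were called in C4-2 and 48% in 22Rv-1, and each list here is to be read beside those shares. USP13, a deubiquitinase of MCL1, was higher in C4-2 ARv7 cells at 0.91 (edgeR adjusted p = 7.62e-09) and lower in 22Rv-1 shARv7 cells at -0.26 (edgeR adjusted p = 0.000532). HUWE1, a ligase of MCL1, was lower in 22Rv-1 shARv7 cells at -0.32 (edgeR adjusted p = 1.4e-08). Of 3 outer membrane channel genes, VDAC1 (-0.20) and VDAC2 (-0.19) were lower in C4-2 ARv7 cells with TMM, and 0 of 3 passed with total counts. VDAC1 was higher in 22Rv-1 shARv7 cells at 0.22 (edgeR adjusted p = 0.000198). Among 6 tested distant relatives BCL2L12 was higher (0.46), MOAP1 (-0.20) and BNIP3L (-0.16) were lower in C4-2 ARv7 cells, with both falls lost at total counts. MOAP1 kept its call in 10 of 15 alternative settings and BNIP3L in 5 of 15. BNIP3 (0.34) and MOAP1 (0.25) were higher in 22Rv-1 shARv7 cells. ENDOG, 1 of 4 released mitochondrial proteins, was lower in C4-2 ARv7 cells at -0.58, passing in 6 of 14 alternative settings, and in 22Rv-1 shARv7 cells at -0.37, passing in 6 of 15.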
